A study of Saccharomyces cerevisiae with 10 samples.

Results

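The strains described here are the yeast haploid deletion mutants that lack a gene of amino acid biosynthesis. A strain was taken when the annotated symbol of its deleted gene was ARG, ARO, CYS, HIS, HOM, ILV, LEU, LYS, MET, PRO, SER, THR or TRP followed by a number alone, with LEU5, a mitochondrial carrier, left out. The platform annotation holds 82 such genes. Of these, 74 were measured, among 4611 deletion strains measured in all, and ILV2, ILV3, ILV5, LEU1, MET2, MET4, MET30 and PRO3 had no value on any array. Each gene was represented by 1 strain, followed through the pair of molecular barcodes (tags) that stand in its genome in place of the deleted gene, and both tags gave values for 73 of the 74. The arg80Δ strain was measured by its first tag alone. LEU2, ARG8 and ARG5,6 were not analysed here.

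The study asked which genes yeast needs to withstand an acute dose of hydrogen peroxide (H2O2), and which it needs to gain protection from a mild dose given first. In the acute protocol, a pool of haploid deletion strains of Saccharomyces cerevisiae was divided into a pair of portions, of which 1 received 0.4 mM H2O2 for 1 h and the other none, and this was measured on 4 arrays as acute over untreated. In the adapted protocol, 1 portion received 0.1 mM H2O2 for 45 min and the other a sham treatment, both then received 0.4 mM for 1 h, and this was measured on 6 arrays as adapted over acute. After treatment all portions grew for 5 h in YPD, a rich medium that supplies amino acids. Each array came from its own frozen aliquot of the pool, grown as its own culture, so that p-values measure the spread between such cultures. The treated or pretreated portion always carried the dye Cy5 and its partner Cy3, so a dye effect and a treatment effect cannot be told apart. All groups are deletion mutants, and the sources used here do not give the background of the pool, although the study's single deletion strains were BY4741, a laboratory strain that lacks HIS3, LEU2, MET15 (the gene named MET17 here) and URA3. If the pool has that background, every strain in it already lacks these genes. A HIS, LEU or MET strain without a call would then say nothing on the loss of histidine, leucine or methionine synthesis.

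Values are log ratios of the tag signals, read as natural logs, and those of a strain's tags were averaged. A log ratio below 0 means that the strain was rarer in the portion named first. Fewer surviving cells and slower growth in the 5 h after the dose both lower it, and the arrays cannot tell them apart. A strain was called at an unadjusted two-sided p under 0.005 in limma, the threshold of the study's methods. Spot signals were not used here, so the depth behind each ratio is unknown.

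Yeast makes all of its amino acids from central carbon metabolites, ammonia and sulfate. The pathways branch from shared precursors: the shikimate pathway (ARO genes) leads to chorismate, from which tryptophan, phenylalanine and tyrosine are made, the HOM genes lead from aspartate to homoserine and so to threonine, isoleucine and methionine, and the MET genes also reduce sulfate to sulfide. Sulfide feeds cysteine, a precursor of glutathione, which is a main thiol antioxidant of the cell. Mutants in these genes are mostly auxotrophs, which take the missing amino acid from a rich medium.

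Arrays of 1 comparison differed widely from each other. Over all strains, pairs of acute arrays had correlations from -0.108 to 0.511 and pairs of adapted arrays from -0.283 to 0.602. Over all single tags, adapted replicates 2 and 4 had a correlation of -0.348, although the labels give both the same dyes. This came from the first tag set, where it was -0.664, while in the second it was 0.298. Likewise adapted replicates 1 and 4 had -0.501 in the first tag set and 0.175 in the second. The tag sets differed among acute arrays too. Acute replicates 1 and 4 had -0.439 in the first and 0.366 in the second, and acute replicates 2 and 3 had 0.0186 and -0.289. The tags of a strain were weakly related on each array, with correlations from 0.057 to 0.224. These points share arrays and tags and are given as a description.

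In acute over untreated, 0 of the 74 strains passed the threshold, against 166 of all 4611 strains (3.6%). Called strains of the whole pool were lower in 123 cases (2.67%) and higher in 43 (0.933%). At p under 0.05 in limma, 2 of the 74 were lower, arg2Δ and cys3Δ, and 0 were higher, against 6.92% and 5.75% of all strains. The median log ratio of the 74 strains was -0.036, with an interquartile range from -0.168 to 0.083, and that of all strains was -0.015, with a range from -0.12 to 0.084. Mean log ratios were below 0 for 44 of the 74 (59.5%) and for 54.8% of all strains. The precision limits this reading. A 95% confidence interval lay wholly within ±0.5 for 40 of the 74 strains, and for the other strains 4 arrays do not bound the change to that size.

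**Figure D1:**
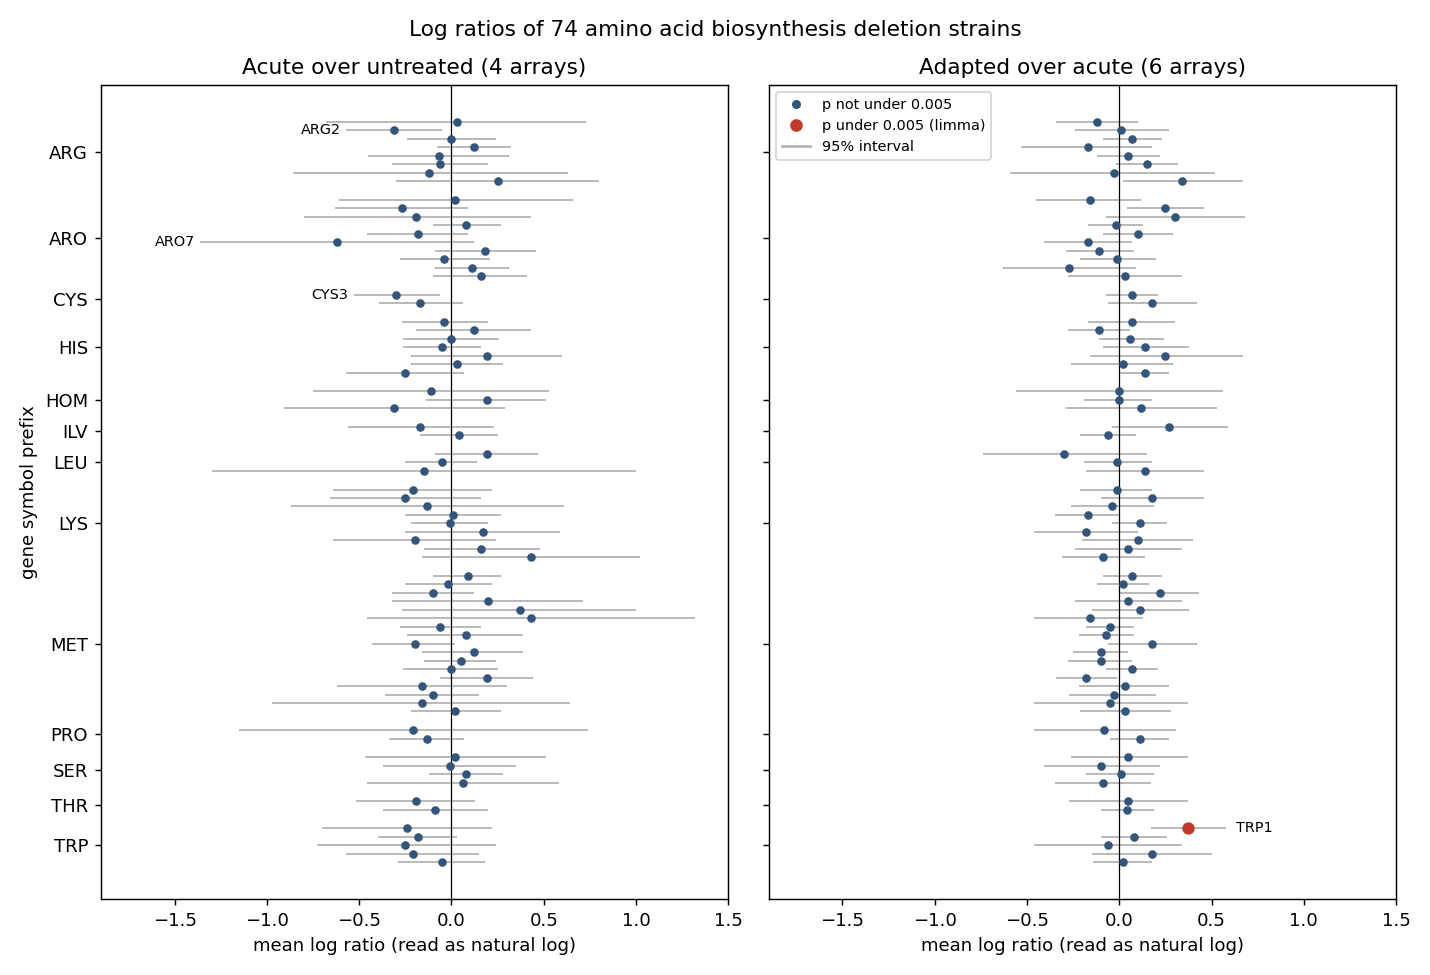
Mean log ratio (horizontal axis, read as natural log) of each of the 74 deletion strains, grouped by gene symbol prefix (vertical axis, each prefix in numerical order of its genes), in acute over untreated (left, 4 arrays) and adapted over acute (right, 6 arrays). Points are means, grey bars are 95% confidence intervals from limma, and the red point marks the 1 strain past the threshold, trp1Δ at 0.37 in adapted over acute.

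In adapted over acute, 1 of the 74 strains passed the threshold, trp1Δ, which was higher in the adapted portion, against 128 of all strains (2.78%), of which 58 were higher (1.26%) and 70 lower (1.52%). At p under 0.05 in limma, 5 of the 74 were higher (trp1Δ, arg82Δ, aro2Δ, his7Δ and met5Δ) and 1 was lower (met18Δ), against 4.47% higher and 6.38% lower among all strains. The median log ratio of the 74 was 0.024, and that of all strains -0.013. Means were below 0 for 32 of the 74 (43.2%) and for 54.5% of all strains. The 95% interval lay within ±0.5 for 63 of the 74.

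The study's adaptive contrast sets acute over adapted against acute over untreated and uses the acute arrays again. It is the first log ratio minus the second. A strain that pretreatment restored by less than the acute dose lowered it has a value above 0. In the contrast, 0 of the 74 strains passed, against 79 of all strains (1.71%), and the medians were 0.023 for the 74 and 0.024 for all strains. At p under 0.05 in limma, 2 of the 74 were higher (aro7Δ and cys3Δ) and 0 lower, against 4.01% higher and 1.54% lower among all strains. Without acute replicate 3, arg82Δ passed at -0.88, and without acute replicate 4, aro7Δ passed at 1.01.

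The tryptophan branch starts from chorismate. TRP2 encodes anthranilate synthase, TRP4 the phosphoribosyl transferase of the next step, TRP1 the isomerase after it, TRP3 a subunit with a glutamine amidotransferase and the indole-glycerol-phosphate synthase, and TRP5 tryptophan synthase. On the 6 adapted arrays, the trp1Δ strain had a lowest value of 0.03, a median of 0.41 and a highest value of 0.63. It was above 0 on 6 of 6 arrays, with the value near 0 on replicate 6. Its mean was 0.37 ± 0.09 (SE, n = 6), with a 95% interval from 0.17 to 0.58 and a limma adjusted p = 0.149, and it is 1.45-fold if the logs are natural. Its tags gave means of 0.46 and 0.3, both above 0, before normalization. The strain ranked 86 of 4611 by p. The call did not hold without any one of adapted replicates 1 to 5, with means from 0.33 to 0.41, or with either tag set alone, at 0.50 and 0.34, and it held without replicate 6, at a mean of 0.45. With the signs of adapted replicates 1 and 2 turned in both tag sets, an alternative chosen after seeing their correlations with the other arrays, the mean was 0.12 and the strain did not pass. In the adaptive contrast trp1Δ stood at -0.13 ± 0.19 (SE, limma adjusted p = 0.999) and did not pass.

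The other 4 strains of the branch did not pass in adapted over acute. Their means were 0.08 for trp2Δ, -0.06 for trp3Δ, 0.18 for trp4Δ and 0.02 for trp5Δ. The trp3Δ strain had values of -0.44 and -0.61 on replicates 1 and 2, and of 0.42 and 0.67 on replicates 3 and 4. On those first 2 arrays it lay opposite to trp1Δ and trp4Δ. In acute over untreated all 5 means were below 0, at -0.24, -0.18, -0.25, -0.21 and -0.05 for trp1Δ to trp5Δ, and none passed. Of all strains, 54.8% had an acute mean below 0. The trp1Δ strain had 0.07, 0.19, -0.77 and -0.46 on acute replicates 1 to 4, and so had both signs. Of the 5, trp2Δ alone was below 0 on all 4 acute arrays, at -0.17, -0.12, -0.10 and -0.35 (mean -0.18 ± 0.08, SE, limma adjusted p = 0.485). The median of the 5 strains was -0.04, -0.12, -0.10 and -0.35 on the 4 acute arrays.

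In the genome, the deletion of TRP1 lies between SOK1 and GAL3 in the gene order of the RefSeq assembly R64. The strains lacking these neighbours had adapted over acute means of 0.11 ± 0.11 and -0.03 ± 0.06 (SE), and neither passed. Of the measured strains up to 3 genes away, rad57Δ, which lacks a recombination protein, passed in acute over untreated, where it was lower (-0.62 ± 0.11, SE, limma adjusted p = 0.0995). It averaged 0.22 ± 0.10 in adapted over acute (SE, limma adjusted p = 0.447), above 0 on 5 of 6 arrays, and did not pass there.

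**Figure D2:**
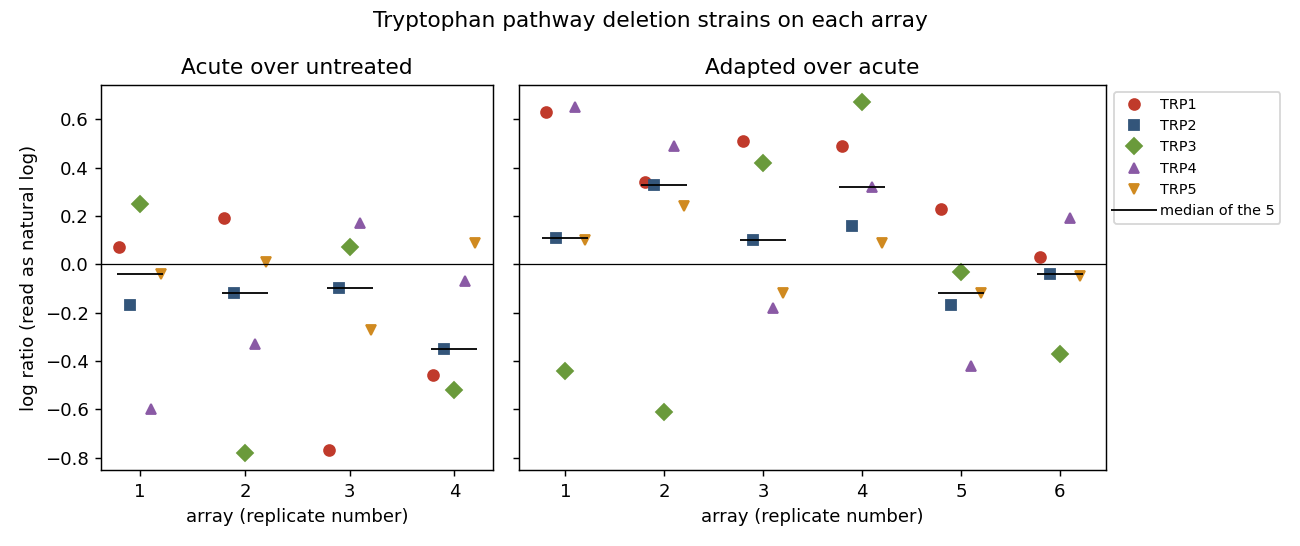
Log ratio (vertical axis, read as natural log) of the trp1Δ to trp5Δ strains on each array (horizontal axis, replicate number) in acute over untreated (left, 4 arrays) and adapted over acute (right, 6 arrays). Points are single arrays and black bars the median of the 5 strains. The trp1Δ points lie above 0 on all 6 adapted arrays, between 0.03 and 0.63, and on both sides of 0 on the acute arrays.

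In the shikimate pathway, the lowest acute mean among the 74 strains was that of aro7Δ, which lacks chorismate mutase, the enzyme that commits chorismate to phenylalanine and tyrosine. Its values on acute replicates 1 to 4 were -1.30, -0.40, -1.16 and 0.39. Of these, 3 lay well below 0 and 1 above. The mean was -0.62 ± 0.30 (SE, n = 4), with a 95% interval from -1.36 to 0.12 and a limma adjusted p = 0.522. The first tag averaged -0.92 and the second -0.13. Its adapted over acute mean was -0.17 ± 0.10 (SE, n = 6), and in the adaptive contrast 0.79 ± 0.30 (SE, limma adjusted p = 0.633).

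The first step of the pathway is catalysed by a pair of isoenzymes, ARO3 and ARO4. The aro4Δ strain had 0.09, 0.11, 0.11 and 0.03 on the acute arrays, a spread (SD 0.0372) among the smallest of the 74. The aro3Δ strain had -1.01, -0.13, -0.16 and 0.55, on both sides of 0. On the adapted arrays, aro3Δ ranged from -0.36 to 0.93 with a median of 0.38 and a mean of 0.30 ± 0.16 (SE, limma adjusted p = 0.557), and aro4Δ averaged -0.02 ± 0.07. The aro3Δ mean came from its second tag, at 0.62, against -0.02 for the first. The aro2Δ strain, which lacks chorismate synthase, ranged from -0.07 to 0.61 in adapted over acute with a median of 0.20, and 5 of 6 arrays lay above 0. Its mean was 0.25 ± 0.09 (SE, limma adjusted p = 0.352). ARO8 and ARO9 encode the aromatic aminotransferases and ARO10 a decarboxylase of aromatic amino acid breakdown. In acute over untreated the aro8Δ and aro9Δ strains averaged 0.18 ± 0.11 and -0.04 ± 0.10, and in adapted over acute -0.11 ± 0.08 and -0.01 ± 0.09 (SE). The aro10Δ strain had 0.14, 0.21, 0.08 and 0.02 on the acute arrays, all above 0. On the adapted arrays it ranged from -0.99 to 0.34 with a median of -0.16 (mean -0.27 ± 0.16, SE, limma adjusted p = 0.597).

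Both strains of the successive steps from homocysteine to cysteine had means below 0 in acute over untreated, as did 54.8% of all strains. CYS4 encodes cystathionine beta-synthase and CYS3 cystathionine gamma-lyase. The cys3Δ strain had -0.11, -0.44, -0.24 and -0.40 on acute replicates 1 to 4, below 0 on all. Its mean of -0.30 ± 0.09 (SE, n = 4) had a 95% interval from -0.53 to -0.06 and a limma adjusted p = 0.264, and it missed the threshold. Its tags gave similar means, -0.38 and -0.30. The cys4Δ strain had -0.21, -0.31, 0.02 and -0.18, with 1 array at about 0 (mean -0.17 ± 0.09, SE, limma adjusted p = 0.596). Adapted over acute, cys3Δ averaged 0.07 ± 0.06 and cys4Δ 0.18 ± 0.10 (SE, n = 6), each above 0 on 4 of 6 arrays. The cys3Δ strain was below 0 on replicates 1 and 2, and cys4Δ on replicates 4 and 5. The median of the pair was above 0 on 6 of 6 arrays, from 0.01 to 0.24, though neither strain was. In the adaptive contrast cys3Δ stood at 0.23 ± 0.10 (SE, limma adjusted p = 0.844).

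The MET prefix gave 17 strains, which cover sulfate assimilation, the methyl cycle, folate enzymes and strains counted below as regulators. None of the 17 passed in either set of arrays. Their median was 0.025 in acute over untreated and 0.021 in adapted over acute. The met3Δ, met14Δ and met16Δ strains, which lack the steps from sulfate to sulfite, averaged -0.02, 0.12 and 0.05 in acute over untreated, and 0.02, -0.10 and -0.10 in adapted over acute. MET5 and MET10 encode the subunits of sulfite reductase, and MET1 and MET8 make siroheme, its cofactor. The met8Δ strain had 0.07, 1.17, -0.74 and 1.22 on the acute arrays, which gave a high mean of 0.43 with an SE of 0.36 (limma adjusted p = 0.793). The met1Δ strain had 0.10, 0.11, 0.08 and 0.06, the smallest SD of the 74 at 0.024. The met5Δ strain was above 0 on 5 of 6 adapted arrays (lowest -0.02, median 0.16, highest 0.57, mean 0.22 ± 0.09, SE, limma adjusted p = 0.447), while its partner met10Δ averaged -0.05 ± 0.06. The met5Δ mean came from its second tag, at 0.41, against 0.01 for the first.

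MET7 encodes folylpolyglutamate synthetase and MET13 a methylenetetrahydrofolate reductase. The met7Δ strain had 1.25, 0.49, -0.15 and -0.13 on the acute arrays (mean 0.37 ± 0.25, SE, limma adjusted p = 0.732). The sign of its first tag could not be fixed, since its spot lies in the gap where the sign of the deposited values changes, and its mean came from the second tag, at 0.78 against -0.07 for the first. The met13Δ strain was below 0 on all 4 acute arrays, at -0.22, -0.40, -0.06 and -0.13 (mean -0.20 ± 0.09, SE, limma adjusted p = 0.473). This mean also came from the second tag, at -0.45 against 0.02 for the first.

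Of the genes that laboratory strains often carry as markers, HIS3, MET17, LYS2 and TRP1 were measured, and trp1Δ is given above. If the pool has the BY4741 background, the his3Δ and met17Δ strains repeat losses that all its strains share. The his3Δ strain, which lacks imidazoleglycerol-phosphate dehydratase, had 0.05, -0.17, 0.25 and -0.14 on acute replicates 1 to 4. The met17Δ strain, which lacks the enzyme that joins sulfide to O-acetylhomoserine, had -0.01, -0.15, 0.27 and -0.11. On no acute array did the pair differ by more than 0.061. Both means were 0.00, with standard errors of 0.10. Of the 4610 other strains, 3 lay as close to his3Δ on the acute arrays (0.0651%), met17Δ among them. The adapted over acute means of his3Δ and met17Δ were 0.06 ± 0.08 and 0.07 ± 0.06 (SE, n = 6), and the pair lay up to 0.20 apart. On these arrays 62 of the 4610 strains lay as close to his3Δ (1.34%). The lys2Δ strain, which lacks aminoadipate reductase, had -0.55, -0.02, -0.62 and 0.18 on the acute arrays (mean -0.25 ± 0.16, SE, limma adjusted p = 0.688) and averaged 0.18 ± 0.12 in adapted over acute.

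Of the 7 histidine strains none passed. The his7Δ strain, which lacks imidazole glycerol phosphate synthase, was above 0 on 6 of 6 adapted arrays (lowest 0.03, median 0.13, highest 0.23). The values lay close together, at a mean of 0.14 ± 0.06 (SE, limma adjusted p = 0.443). It passed the threshold when each strain's own spread was used without moderation, the setting under which trp1Δ did not.

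The lysine strains numbered 9. Homocitrate synthase has a pair of isoenzymes, LYS20 and LYS21. The lys21Δ strain had 0.53, 1.22, -0.20 and 0.17 on the acute arrays, the highest acute mean of the 74 beside met8Δ (0.43 ± 0.24, SE, limma adjusted p = 0.607), and lys20Δ had 0.20, 0.01, 0.54 and -0.09 (mean 0.16 ± 0.13). On the adapted arrays their means were -0.09 ± 0.10 and 0.05 ± 0.13 (SE). The lys12Δ strain, which lacks homoisocitrate dehydrogenase, lay between -0.45 and -0.14 on 5 adapted arrays and at 0.47 on replicate 4 (mean -0.18 ± 0.12, SE, limma adjusted p = 0.665). Without that array it passed the threshold, at -0.32. The lys5Δ strain, which lacks the enzyme that activates Lys2, was below 0 on 5 of 6 adapted arrays (mean -0.17 ± 0.08, SE, limma adjusted p = 0.468).

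Among strains of the aspartate and branched-chain pathways none passed. HOM3 encodes aspartate kinase, HOM2 the next dehydrogenase and HOM6 homoserine dehydrogenase. The hom6Δ strain had 0.16, -1.03, 0.26 and -0.63 on the acute arrays (mean -0.31 ± 0.24, SE, limma adjusted p = 0.771) and the hom3Δ strain -0.14, 0.27, 0.06 and 0.55 (mean 0.19 ± 0.13). They averaged 0.12 ± 0.18 and 0.00 ± 0.08 (SE) in adapted over acute. ILV1 encodes threonine deaminase. The ilv1Δ strain averaged 0.27 ± 0.14 in adapted over acute (SE, limma adjusted p = 0.531), with 1.04 on replicate 1 and values from -0.04 to 0.32 on the others. LEU4 and LEU9 encode isopropylmalate synthases. The leu4Δ strain had 0.00, -0.11, 0.00 and -0.11 on the acute arrays and leu9Δ had 1.15, -0.16, 0.20 and -1.79, the widest spread of the 74 (SD 1.23 against 0.0638 for leu4Δ). Their adapted over acute means were -0.01 ± 0.08 and 0.14 ± 0.14 (SE).

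The phosphoglycerate dehydrogenases of serine synthesis, SER3 and SER33, also differed in spread. The ser3Δ strain had 0.13, 0.14, -0.04 and 0.08 on the acute arrays and ser33Δ had 0.29, 0.55, -0.67 and 0.06, with means of 0.08 ± 0.08 and 0.06 ± 0.21. On the adapted arrays the means were 0.01 ± 0.08 and -0.09 ± 0.11 (SE). Among the 8 arginine strains, arg2Δ, which lacks acetylglutamate synthase, was below 0 on all 4 acute arrays, at -0.09, -0.57, -0.33 and -0.24. Its mean was -0.31 ± 0.10 (SE, n = 4), with a 95% interval from -0.57 to -0.05 and a limma adjusted p = 0.309. The first tag averaged -0.59 and the second -0.08. Its adapted over acute mean was 0.01 ± 0.11.

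By the gene list used here, which counts met18Δ, regulators made up 10 of the 74 strains, and none passed. ARG82 encodes an inositol polyphosphate kinase needed for arginine-controlled transcription. The arg82Δ strain had 0.65, 0.25, -0.55 and 0.64 on the acute arrays (mean 0.25 ± 0.22, SE, limma adjusted p = 0.817), and ranged from -0.14 to 0.94 with a median of 0.28 on the adapted arrays. It had the mean next below trp1Δ in adapted over acute, 0.34 ± 0.14 (SE, limma adjusted p = 0.419), with 0.60 from its second tag and 0.05 from its first. Leu3 is the transcription factor of the leucine genes. The leu3Δ strain had the lowest adapted mean of the 74, -0.30 ± 0.19 (SE, limma adjusted p = 0.655). Its values ranged from -1.17 to 0.25, above 0 on replicates 1 to 3 and below 0 on 4 to 6. MET18 encodes a factor of iron-sulfur protein assembly, whose deletion strain was below 0 on 5 of 6 adapted arrays (lowest -0.31, median -0.21, highest 0.03, mean -0.18 ± 0.07, SE, limma adjusted p = 0.402). The second tag of met18Δ averaged -0.34 on these arrays and the first 0.01. The met31Δ and met32Δ strains lack related zinc-finger factors of the MET genes. The first had 1.02, -0.87, -0.14 and -0.66 on the acute arrays (mean -0.16 ± 0.32) and the second 0.28, 0.00, -0.10 and -0.08 (mean 0.02 ± 0.10). The adapted over acute means were -0.05 ± 0.18 and 0.03 ± 0.11 (SE).

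By prefix, medians in acute over untreated ran from -0.232 for CYS (2 strains) and -0.209 for TRP (5 strains) to 0.025 for MET (17) and 0.037 for SER (4). For CYS and TRP the median lay below 0 on 4 of 4 acute arrays, and for the other 11 prefixes the acute arrays gave both signs. The median of all strains was also below 0 on 4 of 4, at -0.01 on each. Medians in adapted over acute ran from -0.041 for SER to 0.123 for CYS, and CYS was the only prefix with the same sign on all 6 arrays. Neither CYS strain alone had the same sign on all 6. Strains of a pathway are not replicates of a condition, and these medians have no test.

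**Figure D3:**
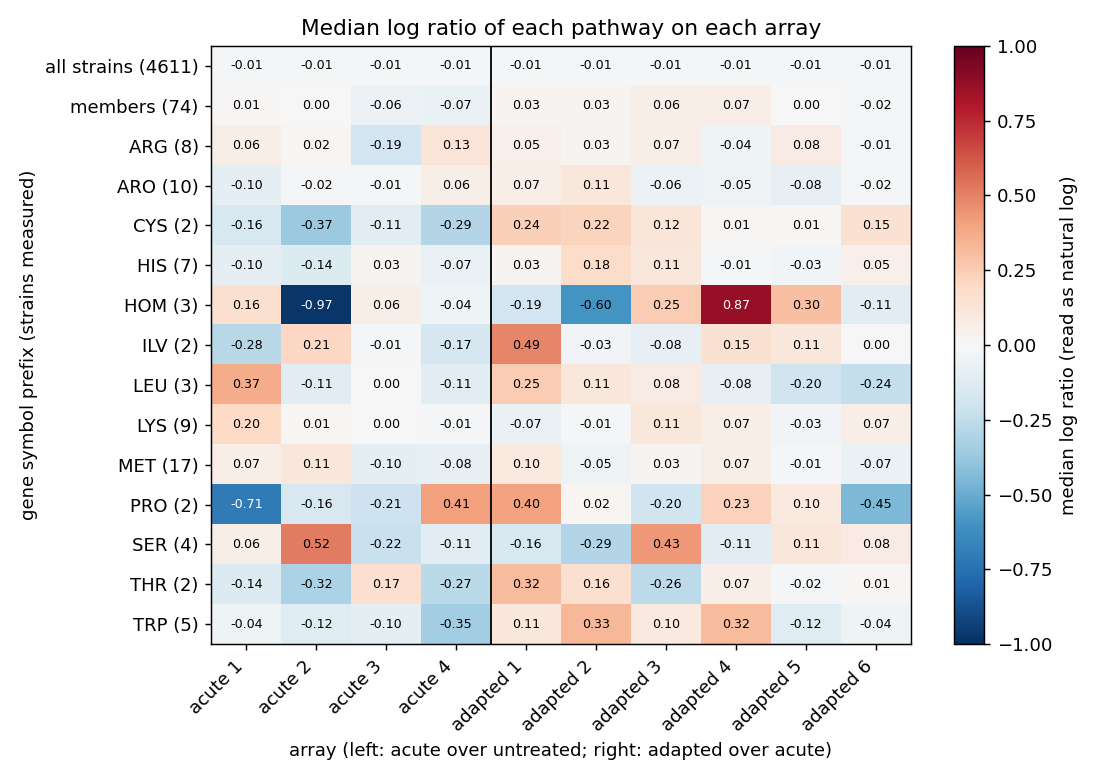
Median log ratio (colour and printed value, read as natural log) of the strains of each gene symbol prefix (rows, number of strains in parentheses) on each array (columns, acute over untreated left of the line, adapted over acute right of it), with all 4611 strains and the 74 strains on top. The CYS row is below 0 on the 4 acute arrays and above 0 on the 6 adapted arrays. Each CYS strain alone had both signs on the adapted arrays. The HOM row has both extremes, -0.97 on acute replicate 2 and 0.87 on adapted replicate 4.

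The spread between arrays was described beside that of the pool, with no test. The median SD over the acute arrays was 0.253 for the 74 strains and 0.225 for all strains, and over the adapted arrays 0.271 and 0.229. Below 0 on every acute array were 4 of the 74 (arg2Δ, cys3Δ, met13Δ and trp2Δ), or 5.41%, against 10.8% of all strains, and above 0 on every one were 4 (arg4Δ, aro4Δ, aro10Δ and met1Δ), against 9.17%. Above 0 on all 6 adapted arrays were 3 (arg80Δ, his7Δ and trp1Δ), or 4.05%, against 3.43% of all strains, and below 0 on all were 0, against 3.93%. Chosen after the array correlations were seen, a further count found that adapted replicates 1 and 2 had 1 sign and replicates 4 and 5 the other in 19 of the 74 strains (25.7%) and in 24.6% of all strains. The hom2Δ strain is an example, with -0.63 and -1.02 on replicates 1 and 2, 1.06 and 0.27 on replicates 4 and 5, and a mean of 0.00. With the signs of replicates 1 and 2 turned, hom2Δ passed at 0.62 and lys14Δ, which lacks the activator of the lysine genes, at 0.40, while trp1Δ did not pass.

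The tags of a strain are measures of the same cells. In acute over untreated their means had a Pearson correlation of 0.161 and a Spearman correlation of 0.156 over the 73 strains with both tags, and had the same sign in 37 of 73 (50.7%), against 58.8% of all strains with both tags. For adapted over acute the correlations were 0.17 and 0.232, with the same sign in 46 of 73 (63%) and in 57.9% of all. Both tags share the array and the culture, and the correlations are a description.

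**Figure D4:**
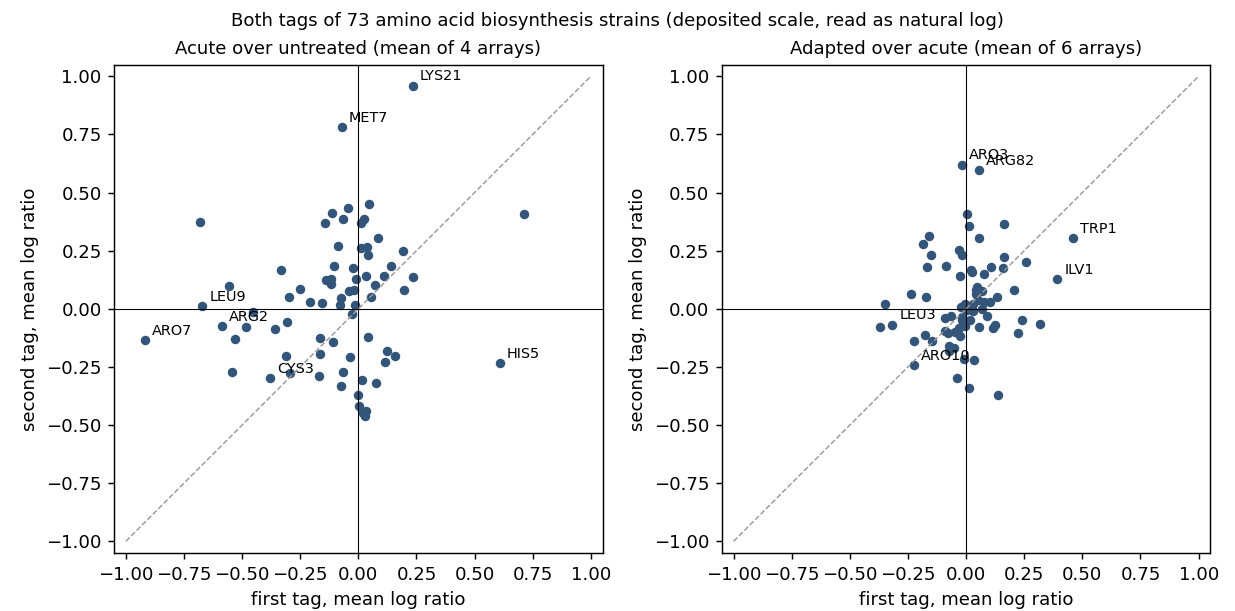
Mean log ratio of the second tag (vertical axis) against that of the first (horizontal axis) for the 73 strains with both tags, in acute over untreated (left, 4 arrays) and adapted over acute (right, 6 arrays), on the deposited scale before normalization. Points are strains and the dashed line marks equal values. The trp1Δ tags lie at 0.46 and 0.3 in the right panel, whereas those of aro7Δ differ in the left panel, at -0.92 and -0.13.

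Other genes of amino acid metabolism were read from gene lists. Of 31 further genes, enzymes apart from the mitochondrial ornithine carrier ORT1, 27 were measured. In acute over untreated 0 of the 27 passed, against 3.6% of all strains. In adapted over acute 2 of the 27 passed, both higher, against 2.78% of all strains in either direction and 1.26% higher. The first is aat1Δ, which lacks the mitochondrial aspartate aminotransferase, with values from 0.24 to 0.45 on the 6 adapted arrays (mean 0.35 ± 0.07, SE, limma adjusted p = 0.0879) and -0.31, -0.41, -0.01 and -0.58 on the acute arrays. The other is gcv3Δ, which lacks the H protein of glycine cleavage and was measured by its first tag alone, with values from 0.17 to 0.40 on the adapted arrays (mean 0.29 ± 0.06, SE, limma adjusted p = 0.1) and -0.62, -0.30, -0.38 and -0.24 on the acute arrays. Both adapted means stand on the same side as trp1Δ, and both strains were below 0 on all 4 acute arrays, where trp1Δ had both signs. In the adaptive contrast aat1Δ stood at -0.02 ± 0.12 and gcv3Δ at 0.09 ± 0.10 (SE), and neither passed. Of the 27 strains, 3 were below 0 on all 4 acute arrays, against 10.8% of all strains. Of the 8 genes of general amino acid control, the Gcn2 to Gcn4 relay that senses starvation, all were measured and 0 passed in either set, against the same shares of all strains. The gcn4Δ strain, which lacks the transcription factor of the relay, averaged -0.03 ± 0.15 in acute over untreated and -0.21 ± 0.14 in adapted over acute (SE). Of 25 genes of amino acid uptake and its sensing, 20 were measured and 0 passed in either set, again against 3.6% and 2.78% of all strains.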

How the data were processed

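Tags of pooled haploid deletion strains were measured on 10 barcode arrays with a pair of dyes, 4 for the acute and 6 for the adapted protocol. The authors read the arrays with GenePix and deposited 1 natural log ratio per spot and array, after median and loess correction. Natural log is a reading, since no source used here gives the base, and another base would rescale the ratios but no p. Of 22575 spots, 16850 hold values. Ratios were kept up to spot 5400 and turned above it, because in the first tag set 3428 replicate spots are of opposite sign to their main spot up to spot 5375 and 350 have the same sign from spot 5409. The overall direction follows earlier work on these data that used the ranking of strains by the study's p-values, and so has no separate check. Spots of the first tag set with equal absolute values on every array were counted as 1 strain, whatever their names or places. This gave 4611 strains, 4147 with a gene symbol from the platform annotation. All 74 member symbols matched RefSeq (R64), which was used for names and neighbours alone. No probe sequence was used.

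Tags were averaged per strain and arrays quantile normalized within a comparison. limma 3.58.1 in R 4.3.3 (lmFit, eBayes) tested each mean log ratio against 0 over all strains, and the adaptive contrast over all 10 arrays, with calls at p under 0.005 and p adjusted by Benjamini-Hochberg beside them. The fit was run on simulated data with independent noise on each array. The real arrays were correlated, so this run does not check the p-values given here. Python 3.11.15 was used with numpy 2.4.6, scipy 1.17.1, pandas 2.3.3 and, for plots, matplotlib 3.10.9. Strains were named if they passed, if they had 1 of the 4 lowest or highest means in a set of arrays, if they had the lowest p of a prefix with at least 3 strains, if they belonged to an isoenzyme or factor pair, or if they were common marker genes, and genes of the other lists if they passed. This gave 34 strains, and all others named were chosen after their values were seen. Members, lists and tests were chosen with earlier results of these data known. The alternatives were single tag sets, strains with both tags, no quantile normalization, no or full sharing of the spread, each array left out, a replicate block, another sign boundary and turned signs, this last pair chosen after seeing the data. The study's expression arrays and growth measurements were not used here.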

Additional observations from a re-analysis of the deposited data

Results flagged for a closer look

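Among the strains named by rule, 3 of 68 sets of arrays examined had 1 array far from the others by Dixon's criterion, which chance alone meets in about 1 in 20 groups. The ilv1Δ strain stood at 1.04 on adapted replicate 1, and the nearest other array was at 0.32. The leu9Δ strain stood at 0.93 on adapted replicate 5, against 0.15 for the nearest. The lys12Δ strain stood at 0.47 on adapted replicate 4, against -0.14 for the nearest. The source of these values was not tested.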

How the results depend on the processing

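In acute over untreated, strains past the threshold numbered 166, against 76 with the first tag alone, 70 without moderation, 264 with 1 spread shared by all strains, 3 after Benjamini-Hochberg adjustment and 79 to 125 with each array left out. Of the 74 members 0 passed, also with any array left out, and 1 (aro7Δ) with the shared spread. In adapted over acute the 128 strains became 65 with the first tag alone, 195 with the shared spread (135 lower and 60 higher), 1 after adjustment and 77 to 109 with an array left out. With the signs of adapted replicates 1 and 2 turned, the split of 70 lower and 58 higher became 15 and 145. The 1 member past the threshold became 0 with the first tag alone, 2 with the second (his5Δ and met5Δ), 2 with those signs turned (hom2Δ and lys14Δ), 0 after adjustment and 0 to 1 with an array left out. In the adaptive contrast the 79 strains became 44 with the first tag alone, 49 without moderation, 128 with the shared spread, 16 after adjustment and 52 to 82 with an array left out, and the 0 members became 1 with the shared spread (aro7Δ) and 0 to 1 with an array left out. The causes were not tested. With the replicate number as a block the contrast called 71 strains and 0 members. Acute and adapted arrays of 1 number are different cultures, the deviations of same-numbered arrays correlated from -0.264 to 0.339, and 1 of 4 arrays correlated best with its own number, so the numbers were not taken as pairs. Of 785 values for single strains under alternatives, 762 counted as the same, 13 moved further, 10 lost their call and 0 called values changed sign. The 10 were all of trp1Δ in adapted over acute, the only call. Uncalled values counted as the same within 1 SD of the reported value, even where the sign changed or the threshold was crossed. With the signs of adapted replicates 1 and 2 turned, aro3Δ went from 0.3 to -0.15 in adapted over acute and counted as the same. Signals over background were not used here, so what they limit is unknown.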
